A study of Mus musculus with 20 samples.

Results

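The genes described here are 10 sensors, transcription factors and targets of the unfolded protein response, read in the thoracic aorta of mice. They were chosen by symbol from their known roles, with earlier results of these data known. They were the sensor genes Ern1, Eif2ak3 and Atf6, the transcription factor genes Xbp1, Atf4 and Ddit3, and the target genes Trib3, Asns, Herpud1 and Ppp1r15a. All 10 were found among the 54532 genes of the count table, and all 10 passed the filter on low counts, which kept 15543 genes. RNA came from the ascending or the descending aorta of C57BL/6J mice that received water or β-aminopropionitrile (BAPN) for 1 week, in 5 libraries for each of the 4 combinations. BAPN inhibits lysyl oxidases, the enzymes that cross-link collagen and elastin. The region was read from the letters A and D in the sample titles together with the study's stated design. No age, sex, dose or time of day of the harvest is given in the labels used here. The labels do not say whether libraries came from separate animals or pools, so the spread behind each p-value is that between libraries and may be technical.

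The unfolded protein response adjusts the endoplasmic reticulum (ER) to its load of secreted and membrane proteins, and vascular smooth muscle cells and fibroblasts, which secrete the matrix of the aortic wall, rely on it. IRE1 is a membrane kinase and ribonuclease that splices the mRNA of Xbp1, PERK is a kinase that phosphorylates the translation factor eIF2α and thereby lets Atf4 mRNA be translated, and ATF6 travels to the Golgi and is cut there to free a transcription factor. Much of this signalling is therefore not visible in the number of transcripts of the sensors themselves, and gene counts do not tell spliced from unspliced Xbp1 mRNA.

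Depth ran from 15744725 to 23292294 counts per library. Levels are given in CPM, the usual measure of a gene's count relative to the scaled total of its library, and differences are log2 ratios with standard errors (SE) from edgeR's quasi-likelihood test. A gene is called when its Benjamini-Hochberg adjusted p over the 15543 genes is under 0.05. Smooth muscle markers were abundant in every library, at 17930 to 24080 CPM summed over 5 genes. Markers of plasma cells and B cells summed to at most 3.94 CPM. Libraries also parted into 2 sets by the levels of 33 genes with the mark -ps (pseudogene) in their symbol. The set with higher levels held ascending water 4 and 5, ascending BAPN 1 to 5, and descending water 1, 2 and 5, and the other 10 libraries made the other set. The labels give no batch, and what these sets stand for was not tested. For the members and the named genes of the lists, the fit with the set as a term, or within the set that holds 2 water and 5 BAPN libraries of a region, is given where it ends a call.

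The response to BAPN turned on 2 members that moved in opposite directions, Xbp1 and Herpud1. The 250 bases upstream of the start sites of both are shown first, with matches to the motifs listed below. Whether these letters bear on the changes of the 2 genes was not tested. Promoter windows were from RefSeq on GRCm38.p6 and ran from 250 bases before to 50 after the start site. Of the 10 members 9 had a window there. The motifs searched, on both strands and with any overlap between them allowed, were the ER stress response element ERSE (CCAAT and CCACG with 9 bases between), the shorter ERSE-II (ATTGG and CCACG with 1 base between), the XBP1 site UPRE (TGACGTGG), the ATF4 composite site CARE (TGATGNAA) and the cyclic AMP response element CRE (TGACGTCA). Capitals mark matches.
Herpud1, chr8:94386179-94386428, plus strand: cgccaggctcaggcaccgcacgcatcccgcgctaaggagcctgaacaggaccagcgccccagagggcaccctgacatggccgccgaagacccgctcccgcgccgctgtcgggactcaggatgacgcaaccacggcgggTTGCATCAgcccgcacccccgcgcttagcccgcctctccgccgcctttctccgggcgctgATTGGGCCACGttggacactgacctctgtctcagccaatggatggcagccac
Xbp1, chr11:5520391-5520640, plus strand: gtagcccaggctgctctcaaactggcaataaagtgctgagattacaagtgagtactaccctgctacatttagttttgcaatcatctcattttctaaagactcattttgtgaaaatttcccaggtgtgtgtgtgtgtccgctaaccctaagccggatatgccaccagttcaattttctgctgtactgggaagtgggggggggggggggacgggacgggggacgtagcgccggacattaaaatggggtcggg

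In the Herpud1 window the match nearer the start site was to ERSE-II (ATTGGGCCACG, 52 to 42 bases upstream), and the other was to CARE on the opposite strand (TTGCATCA, 112 to 105 bases upstream). ERSE-II letters were in 0.0365% of the 32851 windows of this length, and Herpud1 was the 1 member with a match. CARE letters were in 3.97% of windows and in those of 3 members, Herpud1, Trib3 (TTACATCA, bases 15 to 22 after the start site, opposite strand) and Asns (TGATGAAA, 23 to 16 bases upstream). CRE letters, in 1.79% of windows, were found in that of Ppp1r15a, 12 to 5 bases upstream. ERSE (0.119% of windows) and UPRE (0.676%) were in the windows of 0 members. Only exact letters were counted, so an element that differs in 1 letter is not among these matches. The Xbp1 window held no match, which says only that these letters are not in this stretch. A match is a description of the letters and not a measured binding site.

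Compared per kilobase of exon, the 10 members covered a wide range of levels in water. Atf4, the transcription factor that PERK signalling turns on through translation, was highest, at 75.5 CPM per kb (SD 7.4, n = 5) in ascending and 86.1 (SD 6.29) in descending aorta. Herpud1 and Xbp1 followed at 48.5 (SD 3.47) and 48.4 (SD 2.29) CPM per kb in ascending water, and their libraries overlapped. Ppp1r15a lay at 16.9, Ddit3 at 10.7 and Atf6 at 8.12 CPM per kb, each without overlap with its neighbour in the order. Eif2ak3 and Ern1, the genes of PERK and IRE1, stood next at 6.14 and 5.58 CPM per kb and overlapped each other in the ascending aorta, while in the descending aorta (6.66 and 5.06) they did not. Trib3 (2.25) and Asns (0.895) were lowest, with mean counts of 96.8 and 49.2 per library in ascending water. Under BAPN the order differed in 1 place, with Xbp1 above Herpud1 in both regions (55.5 against 42.8 and 58.9 against 44.7 CPM per kb) and no overlap between their libraries. Ddit3 and Atf6 also overlapped under BAPN in both regions.

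**Figure D1:**
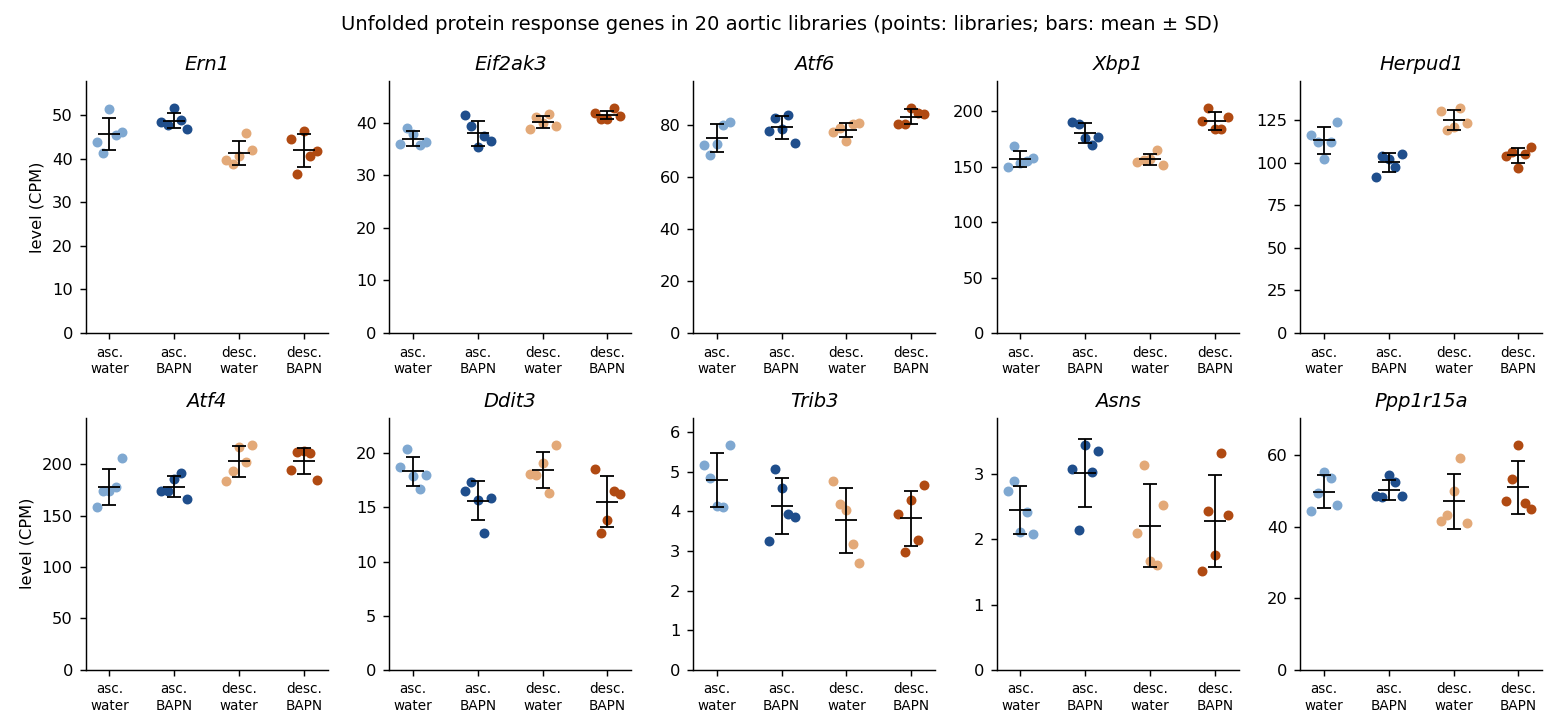
Level of each of the 10 genes in every library, in CPM on axes that start at 0, for the 4 groups; points are libraries and bars are the mean with its SD (n = 5). Xbp1 stands higher in the BAPN than in the water libraries of both regions, Herpud1 stands lower with overlap in the ascending aorta, and the points of Trib3 and Asns spread widely.

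Of the sensors, none was called in response to BAPN in either region. In the ascending aorta 2 of the 10 members were called, 1 higher and 1 lower, where 6.34% of all genes tested were called (3.44% higher, 2.91% lower). In the descending aorta it was again 1 higher and 1 lower, where 10.7% of all genes were called (6.18% higher, 4.54% lower). The called genes were Xbp1 and Herpud1 in each region. The median log2 difference of the 10 members was 0.028 in the ascending and 0.035 in the descending aorta, and that of all genes tested was -0.005 and -0.000. These 2 comparisons have no library in common, but they share 1 model fit. Whether the libraries of the 2 regions came from the same mice is not given in the labels.

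Ern1 (chromosome 11, 106394650 to 106487852 on GRCm38) encodes IRE1α. Its level was 43.9, 41.4, 51.3, 45.4 and 46.1 CPM in ascending water libraries 1 to 5 and 48.5, 47.7, 51.6, 48.8 and 46.9 in ascending BAPN. The groups overlapped, and the log2 difference of 0.09 (SE 0.06) had a 95% interval of -0.04 to 0.23. In the descending aorta the means were 41.4 (SD 2.78) and 41.9 CPM (SD 3.78), and the interval of the difference was -0.11 to 0.15. Eif2ak3 (chromosome 6, 70844515 to 70905245), the gene of PERK, had means of 37 (SD 1.43) and 38 CPM (SD 2.37) in ascending water and BAPN and 40.1 and 41.5 in descending, and its intervals ran from -0.06 to 0.14 and from -0.05 to 0.15. Atf6 (chromosome 1, 170704674 to 170867771) went from 74.9 (SD 5.45) to 79.2 CPM (SD 4.39) and from 78.2 (SD 2.77) to 83.2 (SD 2.85), with differences of 0.08 (SE 0.05, adjusted p = 0.38) and 0.09 (SE 0.05, adjusted p = 0.273) that were not called. In the ascending aorta a rise above 1.17-fold lay outside the interval of each of these 3 sensor genes.

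Xbp1 (chromosome 11, 5520659 to 5525893, 3248 exonic bases) encodes the transcription factor made active when IRE1 splices its mRNA, and it was the only member called higher. Ascending water libraries 1 to 5 had 150, 169, 153, 155 and 158 CPM, and ascending BAPN libraries had 190, 189, 176, 170 and 177. All 5 BAPN libraries lay above all 5 water libraries, the closest pair being 169 and 170. The mean went from 157 (SD 7.44) to 180 CPM (SD 8.58), a 1.15-fold rise (log2 0.20, SE 0.04, adjusted p = 0.00388). Descending water libraries had 154, 156, 157, 165 and 152 CPM, and descending BAPN libraries had 191, 203, 184, 184 and 195. Here the groups stood clear of each other, and the mean rose 1.22-fold from 157 (SD 5.05) to 191 CPM (SD 7.92; log2 0.29, SE 0.04, adjusted p = 5.4e-05). Groups of libraries did not overlap for 7.51% of all genes tested in the ascending and 7.38% in the descending aorta. Within the pseudogene set that holds 2 water and 5 BAPN libraries the ascending difference was 0.21 (SE 0.05) and its adjusted p 0.0543, and the descending difference was 0.24 (adjusted p = 0.0473). The Xbp1 call was kept in both regions when any 1 of the 20 libraries was left out.

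Herpud1 (chromosome 8, 94386438 to 94395377, 2333 exonic bases) encodes a membrane protein of the ER that takes part in the degradation of misfolded proteins and is a textbook target of the response. It was the only member called lower. Its level was 116, 112, 102, 112 and 124 CPM in ascending water libraries and 91.8, 104, 102, 97.5 and 105 in ascending BAPN. The groups overlapped through ascending water library 3. The mean fell from 113 (SD 8.09) to 99.9 CPM (SD 5.32), 1.13-fold (log2 -0.18, SE 0.05, adjusted p = 0.0304). This call was lost without ascending BAPN library 1 or 4 or without ascending water library 1, 4 or 5, each in turn, with adjusted p between 0.0509 and 0.0916 and differences over all libraries left out from -0.22 to -0.14. It was also lost with the pseudogene set as a term (log2 -0.20, adjusted p = 0.0554), while within the set it was -0.24 (adjusted p = 0.046). Descending water libraries had 130, 119, 121, 132 and 123 CPM, and descending BAPN libraries had 104, 106, 96.8, 105 and 109. Every descending BAPN library lay below every descending water library. The mean fell from 125 (SD 5.83) to 104 CPM (SD 4.64), 1.2-fold (log2 -0.27, SE 0.05, adjusted p = 0.000983), and this call was kept without any 1 library and with the set as a term (-0.24, adjusted p = 0.0104).

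**Figure D2:**
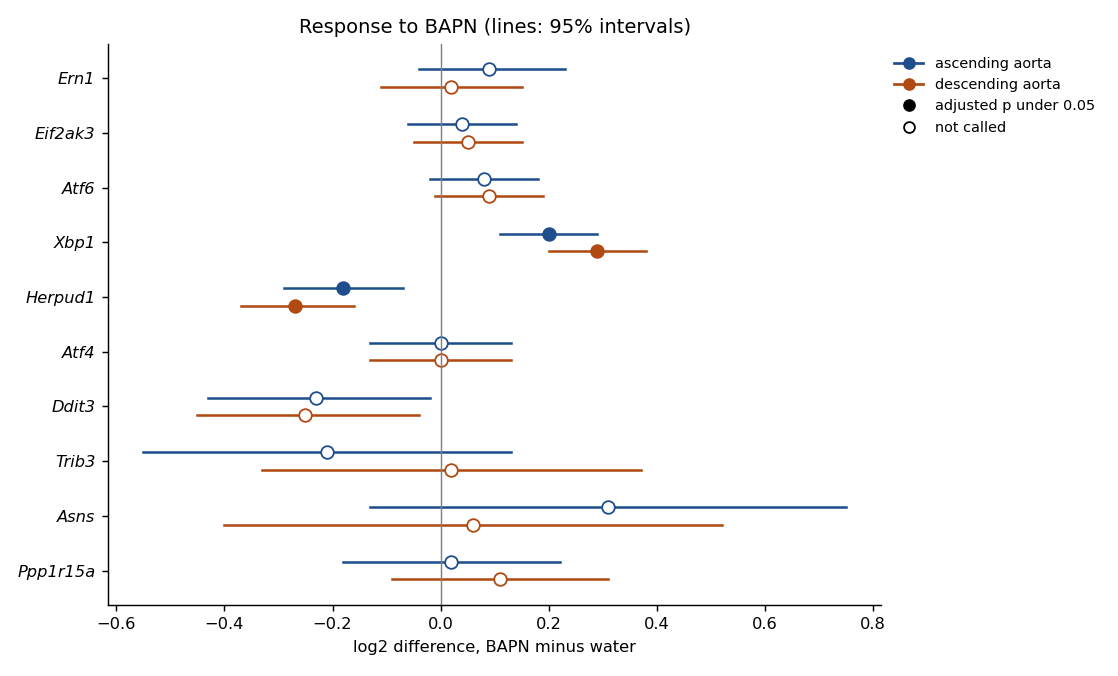
Log2 difference between BAPN and water for each gene in the ascending and descending aorta, with 95% intervals from the edgeR model; filled points are called. Xbp1 lies to the right of 0 at 0.20 and 0.29 and Herpud1 to the left at -0.18 and -0.27, while the other 8 genes have open points in both regions.

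The opposite movement of these 2 genes can be read within each library from their counts, which share depth and scaling. Xbp1 counts per Herpud1 count were 1.3, 1.51, 1.5, 1.38 and 1.27 in ascending water and 2.07, 1.82, 1.74, 1.75 and 1.69 in ascending BAPN. In descending water they were 1.18, 1.32, 1.29, 1.25 and 1.23, and in descending BAPN 1.83, 1.91, 1.90, 1.76 and 1.78. All 10 BAPN libraries, from 1.69 upward, lay above all 10 water libraries, which reached 1.51. The group means were 1.39 (SD 0.11) and 1.81 (SD 0.15) in the ascending and 1.25 (SD 0.0534) and 1.84 (SD 0.068) in the descending aorta. The ratio was formed after both genes were seen to change and is a description with no test.

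**Figure D3:**
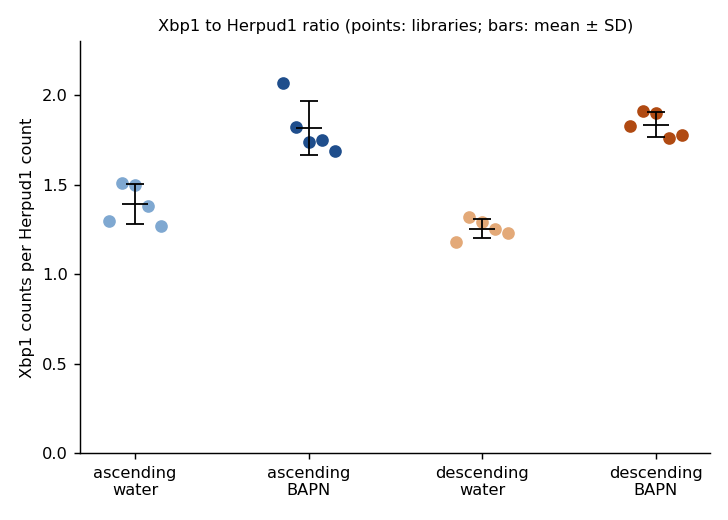
Xbp1 counts per Herpud1 count in each library of the 4 groups, on an axis that starts at 0; points are libraries and bars are the mean with its SD (n = 5). The BAPN libraries of both regions sit at 1.69 to 2.07 and the water libraries at 1.18 to 1.51.

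Atf4 (chromosome 15, 80255184 to 80257541) is regulated mainly at translation, and its transcript was nearly level with BAPN. It had 158, 174, 174, 178 and 206 CPM in ascending water and 174, 174, 186, 191 and 166 in ascending BAPN, and means of 203 (SD 14.8) and 203 CPM (SD 12.7) in descending water and BAPN. The groups overlapped fully, and the 95% interval of the log2 difference was -0.13 to 0.13 in both regions. Ddit3 (chromosome 10, 127290774 to 127296288), the gene of the CHOP transcription factor that is linked to cell death under lasting stress, had 18.7, 20.4, 17.9, 16.7 and 18.0 CPM in ascending water and 16.5, 17.4, 15.7, 12.6 and 15.9 in ascending BAPN. Most BAPN libraries were below most water libraries, with overlap. Its differences of -0.23 (SE 0.10) and, in the descending aorta, -0.25 (SE 0.10) did not pass adjustment in edgeR's quasi-likelihood test (adjusted p = 0.172 and 0.115). Without descending BAPN library 1, which had 18.6 CPM against 12.6 to 16.5 in the other libraries of its group, the descending difference was called (adjusted p = 0.0421). Exons of Ddit3 overlap 68 bases of Mars, a gene on the opposite strand, which is 4% of its exonic bases. Whether counting used strand is not given in the sources used here. At an unadjusted p under 0.05 in edgeR's test, 3 of 10 members passed in each region (Xbp1, Herpud1 and Ddit3), where 20.2% and 23.4% of all genes did.

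Ppp1r15a (chromosome 7, 45522916 to 45526268) encodes GADD34, the phosphatase subunit that removes phosphate from eIF2α and so ends PERK signalling. Its means were 49.8 (SD 4.66) and 50.4 CPM (SD 2.79) in ascending water and BAPN, and 47 (SD 7.72) and 51 (SD 7.41) in descending, with intervals of -0.18 to 0.22 and -0.09 to 0.31. Trib3, a pseudokinase gene induced by ATF4 and CHOP, ranged from 4.1 to 5.68 CPM in ascending water and from 3.24 to 5.07 in ascending BAPN (log2 -0.21, interval -0.55 to 0.13). Asns, which encodes asparagine synthetase and whose window held a CARE match, ranged from 2.08 to 2.89 and from 2.14 to 3.45 CPM (log2 0.31, interval -0.13 to 0.75). At these low levels the intervals in the ascending aorta were wide. They reached a 1.46-fold fall for Trib3 and a 1.68-fold rise for Asns. In the descending aorta the means were 3.77 and 3.82 CPM for Trib3 and 2.21 and 2.28 for Asns, and neither was called.

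The response to BAPN was also compared between the regions. For none of the 10 members did the difference of effects pass adjustment in edgeR's test, which called 0 of the 15543 genes (0%). At an unadjusted p under 0.05 it passed 1070 genes (6.88%) and 0 members. DESeq2 called 14 genes and limma-voom 0, and neither called a member. For Xbp1 the effect in the descending minus that in the ascending aorta was 0.09 (SE 0.06, 95% interval -0.04 to 0.21), and for Herpud1 it was -0.09 (SE 0.07, interval -0.24 to 0.07). Intervals were widest for Asns (-0.88 to 0.39) and Trib3 (-0.26 to 0.72).

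In the aorta without BAPN, 2 of 10 members were higher in the descending than in the ascending region and 0 lower, where 27.3% of all genes tested were called (12.1% higher, 15.2% lower). At an unadjusted p under 0.05 in edgeR's test 5 members passed, where 36.9% of all genes did, and 0 members had groups of libraries that did not overlap, where 20.1% of all genes did. Atf4 had 184, 193, 217, 202 and 219 CPM in descending water, of which 3 libraries overlap the range of the ascending water libraries given above. The mean was 178 (SD 17.5) in ascending and 203 CPM (SD 14.8) in descending aorta (log2 0.19, SE 0.06, adjusted p = 0.021). Herpud1 was at 113 and 125 CPM (0.15, SE 0.05, adjusted p = 0.029), again with overlap. The Atf4 call was lost without ascending water library 1 or descending water library 3 or 5 (adjusted p of 0.0645 to 0.0759). The Herpud1 call was lost without ascending water library 2, 3 or 4 or descending water library 1 or 4 (0.0526 to 0.109), and in a fit to the 2 groups alone (0.0526).

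Under BAPN, 2 members were higher in the descending aorta (Atf4 and Eif2ak3) and 1 was lower (Ern1), where 29.8% of all genes were called (14.2% higher, 15.6% lower). At an unadjusted p under 0.05 in edgeR's test 3 members passed, where 38.2% of all genes did. These regional comparisons use the same libraries as the comparisons with water. Ern1 had 44.5, 36.5, 46.3, 40.5 and 41.8 CPM in descending BAPN, all below the lowest of the ascending BAPN libraries, 46.9. Groups did not overlap for 21.4% of all genes in this comparison. The mean was 48.7 (SD 1.79) in ascending and 41.9 CPM (SD 3.78) in descending aorta, 1.16-fold lower (log2 -0.22, SE 0.06, adjusted p = 0.00914). This call was kept without any 1 library and with the pseudogene set as a term (adjusted p = 0.04). In water the Ern1 difference was -0.14 (SE 0.06, adjusted p = 0.0966), not called, and the difference between the 2 regional differences was -0.07 (SE 0.09, adjusted p = 0.941). Without ascending water library 2 or descending water library 4 the Ern1 difference in water was called (lowest adjusted p = 0.0367). Atf4 was higher at 0.18 (SE 0.06, adjusted p = 0.0247), and Eif2ak3 was at 38 CPM in ascending and 41.5 in descending BAPN (0.13, SE 0.05, adjusted p = 0.0415). In water the Eif2ak3 difference was nearly the same, 0.12 (SE 0.05, adjusted p = 0.06), not called. Without ascending BAPN library 1 or ascending water library 2 it was called in water too. Its difference of effects was 0.01 (SE 0.07). Under BAPN the Eif2ak3 and Atf4 calls depended on the fit. Eif2ak3 lost its call without 7 libraries in turn (those labelled ascending BAPN 3 to 5 and descending BAPN 1 and 3 to 5; adjusted p of 0.0508 to 0.125), in 7 of the other fits (0.0519 to 0.148), and with the set as a term (0.08, adjusted p = 0.516). Atf4 lost its call without 6 libraries in turn (ascending BAPN 1, 2 and 5 and descending BAPN 2 to 4; 0.0529 to 0.0739) and with the set as a term (0.24, adjusted p = 0.0609). All 5 ascending BAPN libraries belong to one pseudogene set and all 5 descending BAPN libraries to the other, so among BAPN libraries set and region cannot be told apart.

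**Figure D4:**
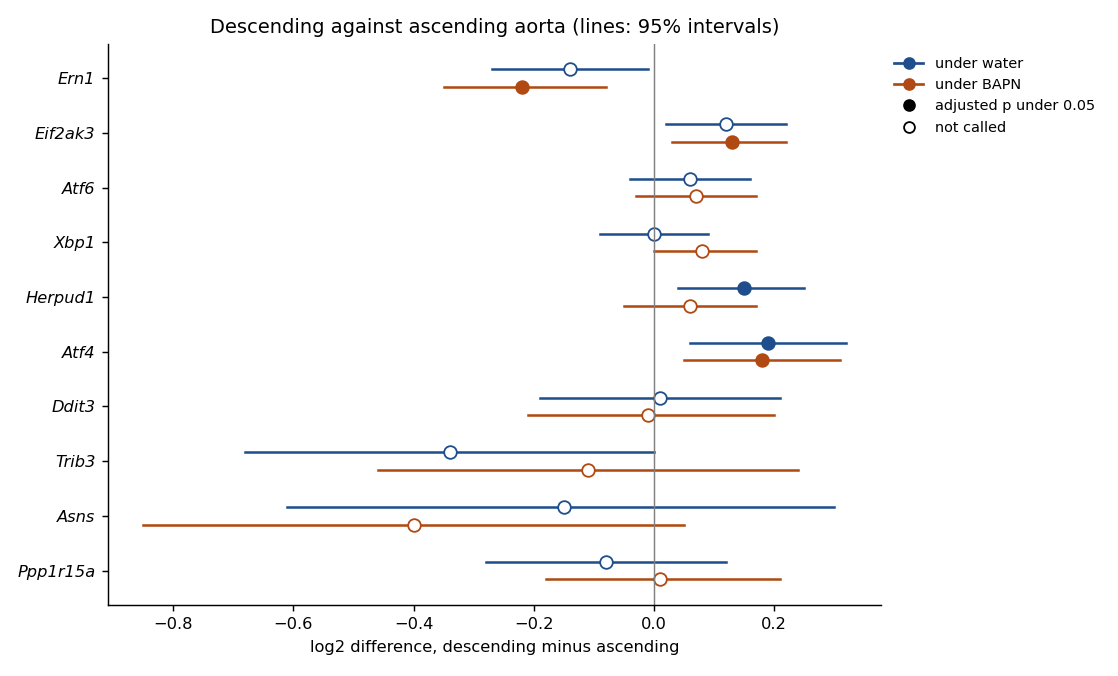
Log2 difference between descending and ascending aorta for each gene under water and under BAPN, with 95% intervals from the edgeR model; filled points are called. Atf4 lies at 0.19 under water and 0.18 under BAPN, Ern1 lies left of 0 (-0.14 and -0.22) with only the BAPN point filled, and Herpud1 is filled only under water.

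The regions differed in their cell content by marker genes, and in bulk tissue fewer cells of a type and less RNA per cell cannot be told apart. Between regions 27.3% of all genes tested were called in water and 29.8% under BAPN. In ascending libraries the summed level of 6 heart muscle markers was 413 to 1188 CPM against 64.4 to 79.2 in descending libraries, all 6 being called lower in the descending aorta under both treatments. Under BAPN Ryr2 was not called with the set as a term (adjusted p = 0.0666), and limma-voom did not call Myl7 and Nppa under either treatment. The 5 mesothelium markers summed to 206 to 374 CPM against 0.762 to 12.2, again with all 5 lower. Of 5 fibroblast markers 4 were lower in the descending aorta under either treatment (3556 to 3955 against 2050 to 2522 CPM in sum), and of 5 adipocyte markers 4 were higher in water and 2 under BAPN. In water Cidec was lost in DESeq2 and without ascending water library 1, 2 or 3 or descending water library 2 or 4 (0.0516 to 0.178), and Plin1 in DESeq2 and without library 2 or 3 of either water group (0.0536 to 0.18). Of 5 endothelial markers 1 was higher and 1 lower in water, 2 higher and 1 lower under BAPN, and the 5 macrophage markers had 0 calls in edgeR's test. The part of these cells in the regional values of Atf4, Herpud1, Ern1 and Eif2ak3 was not tested. Between BAPN and water fewer markers differed, where 6.34% (ascending) and 10.7% (descending) of all genes were called. The smooth muscle gene Acta2 was higher in both regions (1 of 5 markers; summed level 18020 to 19730 against 21060 to 23330 CPM in ascending and 17930 to 20450 against 21620 to 24080 in descending), the heart muscle gene Tnnt2 was higher in the ascending and the fibroblast gene Dpt lower in the descending aorta, and the endothelial, macrophage, adipocyte, mesothelium and B cell lists had 0 members called by edgeR's test. Tnnt2 was not called with the set as a term (adjusted p = 0.235), within the set (0.132), in DESeq2, in the fit to the 2 groups alone, or without ascending BAPN library 3, 4 or 5 or ascending water library 2, 3 or 4 (0.0543 to 0.143), and Dpt was not called within the set (0.119). Their part in the Xbp1 and Herpud1 values was not tested.

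Genes of the clock also parted water from BAPN libraries. Of 15 clock genes 5 were higher and 8 lower with BAPN in each region, where 6.34% (ascending) and 10.7% (descending) of all genes were called. With the set as a term the counts were 5 and 8 in the ascending and 5 and 7 in the descending aorta, and within the set 5 and 8, and 5 and 6. Among those lost were Nr1d1 in the ascending aorta (adjusted p = 0.158 with the term, 0.359 within the set) and Ciart in the descending (0.063 and 0.176), both named after their values were seen. Nr1d1 was also lost without ascending BAPN library 4 or ascending water library 1 or 2 (0.0526 to 0.0593). In the descending aorta it was lost within the set (0.132) and without descending BAPN library 1, 3 or 4 or descending water library 1 or 2 (0.0562 to 0.0776). Dbp, a clock output gene, went from 171 (SD 22) to 32.7 CPM (SD 7.45) in ascending and from 140 (SD 13.2) to 29 CPM (SD 7.74) in descending aorta. Arntl, a core clock activator, went from 7.82 (SD 2.42) to 36 CPM (SD 5.44) and from 9.57 (SD 1.86) to 36.4 (SD 5.42). Its part in the Xbp1 and Herpud1 values was not tested. Of 10 immediate early genes, which respond to handling and dissection, 0 were called by edgeR's test in either region. Fos lay at 39.5 to 78.3 CPM in ascending water and 33.3 to 91.3 in ascending BAPN, and Egr1 at 102 to 175 and 94.1 to 187.

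The other genes of the pathway were read from lists by arm, which were chosen with earlier results of these data known. ATF6 arm targets are mainly ER chaperones and folding factors. Of 10 tested, 5 rose with BAPN in the ascending and 3 in the descending aorta and 0 fell, with medians of 0.158 and 0.122 on the log2 scale. Of all genes tested, 6.34% were called in the ascending and 10.7% in the descending aorta. Hspa5, the chaperone BiP that holds the sensors inactive, was called in both regions. It had 436 to 474 CPM in ascending water and 540 to 614 in ascending BAPN, and 468 to 490 and 577 to 649 in the descending groups, with no overlap in either region. Its means rose from 458 to 575 and from 485 to 610 CPM (log2 0.33, SE 0.04 in both; adjusted p = 8.39e-06 and 4.67e-06). Hyou1, an exchange factor of BiP, rose by 0.28 (SE 0.05) and 0.32 (SE 0.05), and Dnajc3, a BiP co-chaperone also known as an inhibitor of PERK, by 0.20 (SE 0.04) and 0.22 (SE 0.04). Creld2 (0.28, SE 0.06) and Manf (0.32, SE 0.07), named after their values were seen, rose in the ascending aorta. Manf lost its call with the pseudogene set as a term (adjusted p = 0.0608) and Creld2 within the set (0.0668), where Hyou1 in the descending aorta was also lost (0.131). Calr was at 0.10 and 0.11, Hsp90b1 at 0.06 in both regions and Pdia4 at 0.11 and 0.07, none of them called. With the set as a term 5 and 3 genes of the list were called.

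IRE1 arm targets are ER translocation, transport and degradation genes driven by spliced XBP1, and 10 were tested. In the ascending aorta 1 rose and 0 fell, where 6.34% of all genes were called. In the descending aorta 2 rose and 1 fell, where 10.7% were. The medians were 0.076 and 0.091. Pdia6, a disulfide isomerase, went from 168 to 190 CPM in the ascending aorta (0.18, SE 0.05). Sec24d, a coat protein of ER export (0.12, SE 0.04), and Tram1, of the translocon (0.16, SE 0.05), rose in the descending aorta, and Sec61b, another translocon subunit, fell there (-0.25, SE 0.08). With the pseudogene set as a term 0 genes of the list were called in either region. Each call was also lost without single libraries in turn. These were 6 for Pdia6 (ascending BAPN 1, 2 and 4 and ascending water 1, 3 and 5; adjusted p of 0.0562 to 0.0819) and 4 for Tram1 (descending BAPN 1 and 5 and descending water 1 and 3; 0.0512 to 0.108). They were 7 for Sec24d (ascending water 2, descending BAPN 1, 4 and 5 and descending water 1 to 3; 0.0501 to 0.122). For Sec61b they were 13, with 3 of ascending BAPN (1, 3 and 5), 3 of ascending water (1, 4 and 5), 4 of descending BAPN (1 and 3 to 5) and 3 of descending water (1 to 3; 0.0516 to 0.14). Dnajb9, the ER co-chaperone ERdj4 and a classical XBP1 target, was level at 47.5 and 47.6 CPM in ascending water and BAPN (0.00, SE 0.07) and at 43.3 and 44.2 in descending (0.03, SE 0.07). Edem1 (0.07 and 0.08) was not called. Sdf2l1, at 8.93 and 11.1 CPM in the ascending aorta, had differences of 0.32 (SE 0.12, adjusted p = 0.125) and 0.31 (SE 0.12, adjusted p = 0.117).

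PERK and ATF4 targets, which serve amino acid supply and the stress response, moved in both directions. Of 20 tested of 22 listed (Fgf21 and Slc7a11 did not pass the filter), 2 rose and 4 fell with BAPN in each region, with medians of -0.094 and -0.133. Of all genes tested, 6.34% were called in the ascending and 10.7% in the descending aorta. Mthfd2, a mitochondrial folate enzyme, rose from 11.6 (SD 1.16) to 17.7 CPM (SD 1.34) in the ascending (0.60, SE 0.07, adjusted p = 8.82e-06) and from 22.3 to 26.6 CPM in the descending aorta (0.25, SE 0.07, adjusted p = 0.0186). The descending call was lost without descending BAPN library 4 (adjusted p = 0.0622) and within the pseudogene set (0.148). Phgdh, the first enzyme of serine synthesis, fell from 20.8 to 15.7 CPM (-0.41, SE 0.07) and from 26.6 to 21.2 (-0.33, SE 0.06). Atf5, a transcription factor gene related to Atf4, fell from 213 to 174 CPM (-0.29, SE 0.05) and from 217 to 184 (-0.23, SE 0.05). Vldlr, a lipoprotein receptor, fell in the descending aorta (-0.20, SE 0.05) and was lost within the set (adjusted p = 0.216). Named after their values were seen, the arginine transporter Slc7a1 rose (0.31 and 0.26, SE 0.07 in both), the mitochondrial enzyme Pck2 fell (-0.20 in both, SE 0.05) and Nupr1, a stress-linked cofactor gene, fell in the ascending aorta (-0.26, SE 0.08). In the ascending aorta Pck2 was lost without ascending BAPN 2, 3 or 4 or ascending water 1 or 2 (0.0514 to 0.0783), and Nupr1 without ascending BAPN 1, 3 or 4 or ascending water 1 or 2 (0.0601 to 0.129). Both were lost with the set as a term (adjusted p = 0.24 and 0.362), and Slc7a1 in the descending aorta with that term (0.0963). In that fit 2 genes of the list rose and 2 fell in the ascending aorta, and 1 rose and 5 fell in the descending. Atf3 was at -0.62 (SE 0.42) and -0.54 (SE 0.43) and Chac1 at -0.31 (SE 0.25) and -0.66 (SE 0.26), not called.

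**Figure D5:**
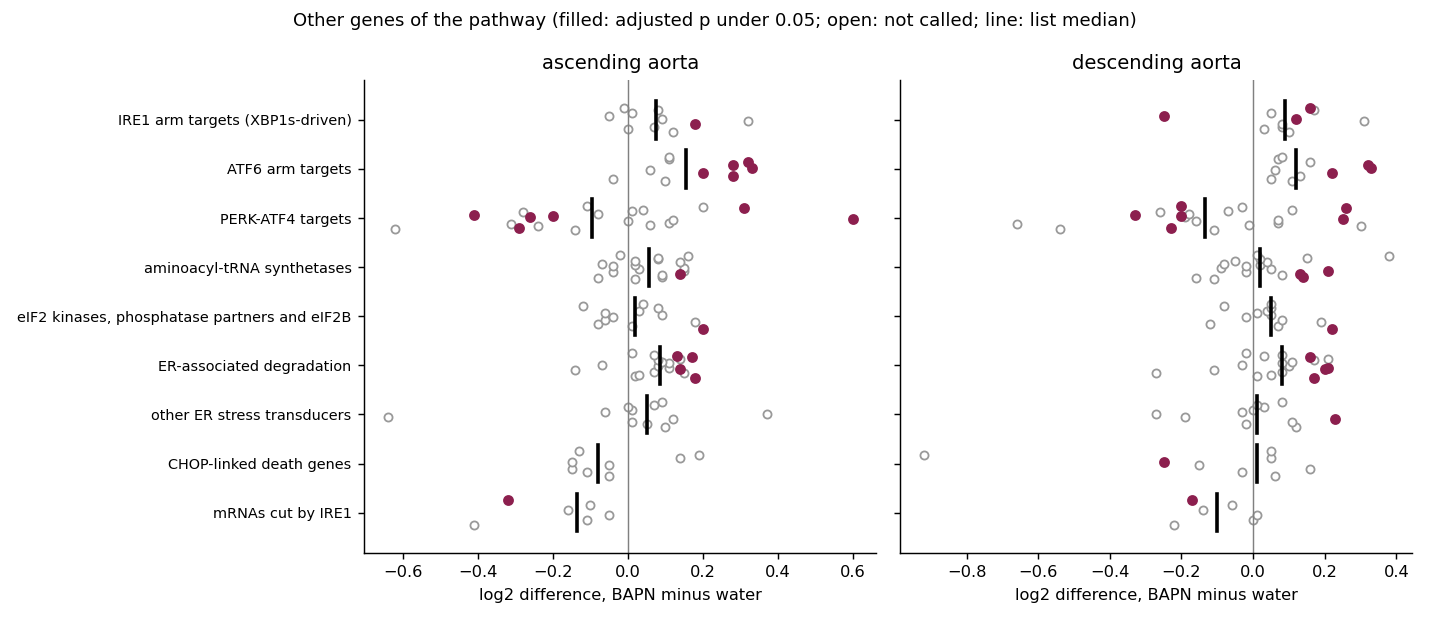
Log2 difference between BAPN and water for the tested genes of 9 pathway lists in the ascending and descending aorta; each point is a gene, filled where called, and the black line is the list median. ATF6 arm targets sit to the right of 0 with medians of 0.158 and 0.122, and PERK and ATF4 targets spread to both sides with medians of -0.094 and -0.133.

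Aminoacyl-tRNA synthetases, many of which ATF4 can induce, had 1 higher and 0 lower of 18 in the ascending and 3 higher and 0 lower in the descending aorta. Among all genes tested 6.34% and 10.7% were called in these regions. Gars, for glycine, was at 0.14 and 0.13 (SE 0.04 in both), and Iars (0.21, SE 0.05) and Dars (0.14, SE 0.04) were higher in the descending aorta. With the pseudogene set as a term Gars lost both calls (adjusted p = 0.105 and 0.0983) and Iars its call (0.121), and Dars was lost within the set (0.218), under upper-quartile scaling, without a filter, in the fit to the 2 groups alone, and without descending BAPN library 5 or descending water library 1 or 3 (0.0599 to 0.0663). Gars was also lost in the ascending aorta without ascending BAPN library 1, 2, 3 or 4 or ascending water library 1, 2 or 3 (0.0592 to 0.103), and in the descending without descending BAPN library 2 or 3 or descending water library 1, 2, 3 or 5 (0.0545 to 0.103). Of 12 genes for other eIF2 kinases, phosphatase partners and the exchange factor eIF2B, 1 was higher and 0 lower in each region, and that was Dnajc3, which the list shares with the ATF6 arm.

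ER-associated degradation, the process Herpud1 serves, had 4 genes higher and 0 lower of 18 in each region, with medians of 0.088 and 0.082. The list shares Syvn1 and Edem1 with the IRE1 arm list and Sel1l with the ATF6 arm list. Among all genes tested 6.34% were called in the ascending and 10.7% in the descending aorta. Edem3, which trims the glycans of misfolded proteins, rose by 0.14 (SE 0.04) and 0.20 (SE 0.04), and Ube2j1, a ubiquitin-conjugating enzyme of the ER, by 0.17 (SE 0.04) and 0.16 (SE 0.04). Ubxn4, named after its values were seen, rose in the ascending aorta (0.13, SE 0.04, adjusted p = 0.0497). Herpud2, the paralogue of Herpud1, rose from 70.7 (SD 2.94) to 81.8 CPM (SD 3.61) in the descending aorta (0.21, SE 0.04, adjusted p = 0.0016) with no overlap of libraries, and was at 73.8 and 79.7 CPM in the ascending (0.11, SE 0.04, adjusted p = 0.121). In the ascending aorta Edem3 was lost without ascending BAPN 2, 3 or 4 or ascending water 1, 2, 3 or 4 (0.0613 to 0.104), Ubxn4 without any 1 of 15 libraries, the exceptions being ascending water 1, descending BAPN 2 and 5 and descending water 1 and 2 (0.0502 to 0.11), and Ube2j1 without ascending BAPN library 4 (0.0511). Ube2j1 in the descending aorta was lost without descending water library 3 (0.0548). With the set as a term Edem3, Herpud2 and Ube2j1 were still called in the descending aorta (adjusted p = 0.00298, 0.00947 and 0.0256), while within the set Edem3 was called (0.0424) and Herpud2 (0.0774) and Ube2j1 (0.0882) were not. With the term, in the ascending aorta Edem3 (0.197), Ube2j1 (0.107) and Ubxn4 (0.0977) were not.

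The next 3 lists are again set beside shares of 6.34% and 10.7% of all genes called with BAPN in the ascending and descending aorta. Of 11 other ER stress transducers tested, 0 were called in the ascending aorta by edgeR's test and 1 in the descending. The latter was Creb3l2, an ATF6-related factor of secretory cells, which rose from 237 (SD 16.9) to 279 CPM (SD 11.5; 0.23, SE 0.05) and was lost within the set (adjusted p = 0.22). Ern2, the gut relative of Ern1, did not pass the filter and had 0 counts in 3 of the 4 groups. Of 8 death genes linked to CHOP, 0 were called in the ascending aorta, and Casp12 was lower in the descending (-0.25, SE 0.07). That call was lost without descending BAPN library 1 or 3 or descending water library 1 (0.0547 to 0.0706) and with the set as a term (0.124). Of 6 mRNAs that IRE1 is known to cut in other cells, 1 fell in each region, the secreted matrix protein gene Sparc (-0.32 and -0.17, SE 0.04 in both). Bloc1s1, the best known of them, had 0.785 and 0.586 CPM in ascending water and BAPN and was not called (-0.41, SE 0.41). At so low a level its counts are few, and neither a response nor the lack of one can be read from it.

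Between the regions in water 27.3% of all genes were called, and in some of the same lists all calls went the same way. Aminoacyl-tRNA synthetases had 4 higher and 0 lower of 18 in the descending aorta. Other ER stress transducers had 2 higher and 0 lower of 11, and mRNAs cut by IRE1 had 2 higher and 0 lower of 6. The list of eIF2 kinases and partners had 0 higher and 1 lower of 12. Death genes linked to CHOP had 1 higher and 1 lower of 8. IRE1 arm targets had 4 higher and 1 lower of 10 in the descending aorta, those with the smallest p being Sec24d (290 and 341 CPM; 0.24, SE 0.04) and Ssr1 (218 and 254 CPM; 0.22, SE 0.04). ATF6 arm targets had 2 higher (Creld2 at 0.22, SE 0.06, and Calr at 0.15, SE 0.04) and 1 lower of 10. PERK and ATF4 targets had 4 higher and 1 lower of 20, also close to that share. Mthfd2 stood at 11.6 CPM in ascending and 22.3 in descending aorta (0.93, SE 0.07), and Vldlr at 235 and 135 CPM (-0.80, SE 0.05). ER-associated degradation had 4 higher and 1 lower of 18, a share close to that of all genes, and those with the smallest p were Edem3 (0.29, SE 0.04) and Derl1 (0.18, SE 0.04). Its lower gene, Edem1, is also the lower gene of the IRE1 arm list. The Edem1 call was lost without 7 libraries in turn (adjusted p of 0.0567 to 0.0942). These values share their libraries with the marker differences between regions given above, whose part in them was not tested.

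Genes whose pattern over the 20 libraries came nearest to the called members were found by the root mean square (RMS) difference of log2 CPM. Each gene was centred on its own mean. The search covered 10615 protein-coding genes whose mean level reached 5 CPM, leaving out symbols that start with Gm or end in Rik. Nearest to Xbp1 were Serping1, the complement C1 inhibitor gene (RMS 0.068), and Gapvd1, a gene of endocytic trafficking (0.069), against 0.136 for Xbp1 from its own mean and a median of 0.187 over genes. Serping1 went from 438 (SD 13.5) to 481 CPM (SD 14) in the ascending and from 412 (SD 18.7) to 500 (SD 37.8) in the descending aorta, and its ascending difference was not called (adjusted p = 0.0728). Gapvd1 went from 72.5 to 82.3 and from 75.4 to 85.8. Nearest to Herpud1 were Smim10l1 (0.070) and Epdr1 (0.080), against 0.144 for Herpud1 and a median of 0.196. Smim10l1 went from 99.7 to 89.7 and from 109 to 96.5 CPM, and Epdr1 from 89.8 to 83.6, which was not called (adjusted p = 0.135), and from 96.9 to 86.6.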

How the data were processed

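RNA-seq of 20 mouse aortic libraries was used. A fibrous-tissue kit gave the RNA, of which 1 µg went into each library, per the labels' protocols. The authors deposited raw read counts per Ensembl gene, made with the tools fastp, STAR 2.5 and HTSeq 0.6.1 on build mm10, per the submitters' processing notes. Their settings, the annotation and the use of strand are not given in the sources used here. Symbols, coordinates and exonic lengths came from a GENCODE annotation of GRCm38, which held 54409 of the gene IDs and lacked 123. The 20 files per library were checked and equal the table. Depth was 15744725 to 23292294 counts per library, and precision is lowest for genes with few counts.

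Genes were kept by filterByExpr (minimum count 10, minimum total 15), scaled by TMM factors and fitted with edgeR 4.0.16 (R 4.3.3) by a quasi-likelihood model over all 20 libraries with 1 coefficient per group and 16 residual degrees of freedom. P-values were adjusted by Benjamini-Hochberg over all 15543 genes. CPM used the scaled library sizes. Alternatives were relative log expression and upper-quartile scaling, DESeq2 1.42.0, limma-voom (limma 3.58.1), a filter of 1 CPM in 5 libraries, no filter, a block for the replicate number, a fit to just the pair of groups compared, pseudogene sets as a term or split, and leaving out each library.

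Members and lists were chosen with earlier results of these data known, and the lists are no independent evidence. Named were all members, up to 3 called genes of each list with the smallest p in each BAPN comparison and up to 2 in the regional comparison under water, Hspa5, Dbp, Arntl, Fos and Egr1, and the 2 nearest patterns to each member called with BAPN. Uncalled genes of the lists that are named, and others marked so, were chosen after their values were seen. One gene counted in a list is not reported here by name. The replicate numbers did not meet the criterion for pairing, a correlation over 0.1 in every pair.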

Additional observations from a re-analysis of the deposited data

How the results depend on the processing

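The number of members called with BAPN was 2 in each region in each other fit tried, except 1 in the ascending aorta with the pseudogene set as a term (Herpud1 lost) and 1 within the set (Xbp1 lost). Leaving out each library gave 1 to 2 in the ascending and 2 to 3 in the descending aorta. Between regions in water the number was 1 in a fit to the 2 groups alone and 1 to 3 leaving out each library. Between regions under BAPN the number was 1 with the set as a term and 1 to 3 leaving out each library. Eif2ak3 also lost its call there under relative log expression and upper-quartile scaling and in DESeq2. That call was lost as well without a filter, with the 1 CPM filter, in the 2 groups alone and with the replicate block. The number was 0 throughout for the difference of effects. Over all comparisons 1 uncalled member difference was called in another fit. The cause of these shifts was not tested.

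Directions that reversed were those of uncalled differences. Under upper-quartile scaling these were Ern1 (-0.01) and Trib3 (-0.01) with BAPN in the descending aorta and Ppp1r15a between regions under BAPN (-0.01). With the set as a term they were Ern1 with BAPN in the descending aorta (-0.01), Ppp1r15a between regions under BAPN (-0.17), and in the difference of effects Eif2ak3 (-0.05), Atf4 (0.06), Asns (0.01) and Ppp1r15a (-0.12). Within the set they were Atf6 in the ascending aorta (-0.02), and Ern1 (-0.05) and Ppp1r15a (-0.11) in the descending. Leaving out single libraries, sign changes were seen with BAPN in the descending aorta for Asns (-0.11 to 0.22), Trib3 (-0.07 to 0.12) and Ern1 (-0.02 to 0.06) and in the ascending for Ppp1r15a (-0.02 to 0.06). They were seen between regions for Ddit3 in water (-0.03 to 0.05) and under BAPN (-0.08 to 0.06) and for Ppp1r15a under BAPN (-0.07 to 0.06), and in the difference of effects for Atf4 (-0.06 to 0.03), Atf6 (-0.02 to 0.04), Ddit3 (-0.09 to 0.05) and Eif2ak3 (-0.02 to 0.04). Differences of 0.00 over all libraries also crossed 0, for Atf4 with BAPN in the ascending (-0.04 to 0.06) and descending aorta (-0.04 to 0.03) and Xbp1 between regions in water (-0.02 to 0.03). The cause was not tested.

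With the replicate number as a block 2 members were called in each BAPN comparison, 2 between regions in water, 2 under BAPN (Eif2ak3 lost, adjusted p = 0.0519) and 0 for the difference of effects. Same-numbered libraries of the 2 regions had residual correlations of -0.048 to 0.106, with 3 over 0.1. Of the ascending libraries 5 of 5 under BAPN and 1 of 5 under water correlated best with their own number, a hint from the data and not from the design.

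Over all genes, upper-quartile scaling called 449 higher and 529 lower with BAPN in the ascending aorta against 534 and 452, and 706 and 874 in the descending against 961 and 706. With the set as a term 330 genes were higher and 212 lower in the ascending aorta and 629 and 497 in the descending, and within the set 270 and 213, and 218 and 212. Between regions under BAPN that term gave 1131 and 1624 against 2206 and 2420. For the difference of effects edgeR without a filter called 11 higher and 30 lower and DESeq2 called 1 and 13, against 0. Low counts limit Trib3 and Asns, whose intervals are the widest.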
